A study of Homo sapiens with 6 samples.

Results

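Cells of the line THP-1, an established human monocytic leukaemia line, were studied as they stood after transfection with a negative control microRNA mimic, a short synthetic RNA used as the reference treatment. The 3 libraries that the labels place in this group were used, of 6 in the series, and the other 3 libraries, which received a miR-125a-5p mimic, were not compared with them. All cells were grown in RPMI with 10% FBS, and their RNA was taken with trizol 24 h after transfection. The study's title speaks of macrophages, whereas the labels describe monocytic cells and name no differentiation step. Neither labels nor design text state that the 3 libraries came from separate cultures, so the spread given here is that between these libraries and may be technical.

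Monocytes and macrophages are phagocytes of the myeloid lineage. They arise from bone marrow progenitors under the transcription factors PU.1 and C/EBP and under signals of the receptor for macrophage colony-stimulating factor, CSF1R, and they carry receptors for microbes, antibodies and chemokines. THP-1 is known to carry a fusion of KMT2A and MLLT3, a lesion of acute leukaemia that is associated with raised HOXA genes, and it is widely used as a model of monocytes.

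Control libraries 1, 2 and 3 held 10257791, 8423228 and 9040297 counts. Levels are given as CPM, counts per 1000000: a gene's counts over its library's total, with each total adjusted by a trimmed mean of M-values, and ± is the SD over the 3 libraries (n = 3). One CPM stood for 8.47 to 10.2 counts, and a gene with 0 counts in all 3 libraries had a level of at most 0.108 CPM (3 counts of the summed total, for counting error only). CPM grow with transcript length, so the levels of different genes are set against each other as CPM per kilobase of annotated exon, and an order given by CPM is one of counts and not of transcript numbers. The exon length joins the exons of all annotated transcripts of a gene. It can exceed the length of any single transcript, so values per kilobase run low for genes with many transcript forms. Library 1 stood apart: its log2 CPM correlated with those of libraries 2 and 3 at 0.982 and 0.982, against 0.987 between libraries 2 and 3, across 13943 genes, which are not independent replicates. Values per library are therefore printed for the genes on which a statement turns. No pair of libraries agreed within sampling noise, with a chi-square statistic of 4.02 per gene for libraries 2 and 3 and of 10.6 and 12.1 for the pairs that held library 1.

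Most protein-coding genes were in use in these cells. Of 26347 gene rows, 13943 (52.9%) reached 1 CPM in each of the 3 libraries, 9329 reached 10 CPM, 2135 reached 100 CPM and 63 reached 1000 CPM. No count at all was found for 6020 rows (22.8%). Among the 19036 protein-coding rows, 12366 (65.0%) reached 1 CPM in each library and 2969 (15.6%) had no count. The 10 most abundant genes held 7.36% ± 0.574 of the counts, the 100 most abundant 19.6% ± 0.407 and the 1000 most abundant 50.7% ± 0.152. Between 959 and 973 genes, depending on the library, were enough to hold 50% of the counts. Protein-coding genes took 92.7% of the counts, long noncoding RNA genes 3.09% and pseudogenes other than transcribed ones 2.20%. The table held 0 rows for genes encoded in the mitochondrial genome.

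The most abundant transcripts were those of the cytoskeleton, of translation and of iron storage, next to 2 nuclear noncoding RNAs and a group of interferon-stimulated genes. The row at the top was MTRNR2L2, a nuclear copy of the mitochondrial large ribosomal RNA, at 23920.0, 15057 and 15415 CPM in libraries 1, 2 and 3. Library 1 was far above the others there, and the row of another copy, MTRNR2L8, read 4678, 3068 and 3155 CPM. Reads of near-identical copies and of the mitochondrial gene itself cannot be told apart in these counts, so both values are uncertain as levels of the named genes. MALAT1, a long noncoding RNA of nuclear speckles, stood at 9621, 10084 and 9635 CPM, and NEAT1, the scaffold RNA of paraspeckles, at 1830.1, 2268 and 1873 CPM.

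ACTB, the cytoplasmic beta-actin, stood at 9183, 9229 and 9018 CPM and hardly differed between libraries (SD 111 CPM). CAP1, which recycles actin monomers, stood at 8314, 7849.6 and 8205 CPM. YBX1, a protein that binds RNA and DNA and packages messenger RNA, stood at 7608, 6993 and 7436 CPM. Per kilobase these genes ranked near the top as well: YBX1 had 3806 CPM per kb, ACTB 2598 CPM per kb and CAP1 2129.7 CPM per kb. Among protein-coding genes only FTL, the light chain of the iron store ferritin, was above all 3 on that scale, at 4597 CPM per kb, and the ferritin heavy chain FTH1 was at 734 CPM per kb. EEF1A1, the factor that brings transfer RNA to the ribosome, stood at 4189, 4845 and 5118 CPM, with library 1 lowest. The other genes among the 25 of highest CPM included the translation factor PABPC1 (2909.9 ± 197 CPM), the tubulin TUBA1B (2872 ± 88.8 CPM), the actin bundler LCP1 of white blood cells (2427 ± 199.9 CPM), the chaperones HSPA8 (2321 ± 250.3 CPM) and HSP90AB1 (2103 ± 60.2 CPM), the lysosomal thioesterase PPT1 (3634 ± 79.2 CPM) and the regulator of lysosome size LYST (3033 ± 72.5 CPM).

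Secreted products of macrophages were prominent among the abundant transcripts. CHI3L1, a chitinase-like glycoprotein released by macrophages, read 5698, 5158 and 4542 CPM, and per kilobase (1506 CPM per kb) only FTL, YBX1, ACTB, CAP1 and IFI6 were above it among protein-coding genes. SPP1, which encodes osteopontin, read 2161, 1965 and 1748 CPM. For both, library 1 was highest and library 3 lowest. Of 20 secreted macrophage products listed, 17 reached 1 CPM in each library, among them GPNMB (933 ± 83.9 CPM), progranulin GRN (466 ± 14.5 CPM), TGFBI (237 ± 12.04 CPM) and the protease inhibitor TIMP1 (172 ± 17.5 CPM), and MMP12, the macrophage elastase, had 0 counts. That list was drawn up after the values had been seen, and of all protein-coding rows 65.0% reached 1 CPM. XAGE1A, a cancer-testis antigen gene, was also among the 15 protein-coding genes of highest CPM per kb, at 889 CPM per kb and 1029.8, 876 and 951 CPM. Its row held the same 3 counts as that of its copy XAGE1B, so the level belongs to the pair of copies.

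**Figure D1:**
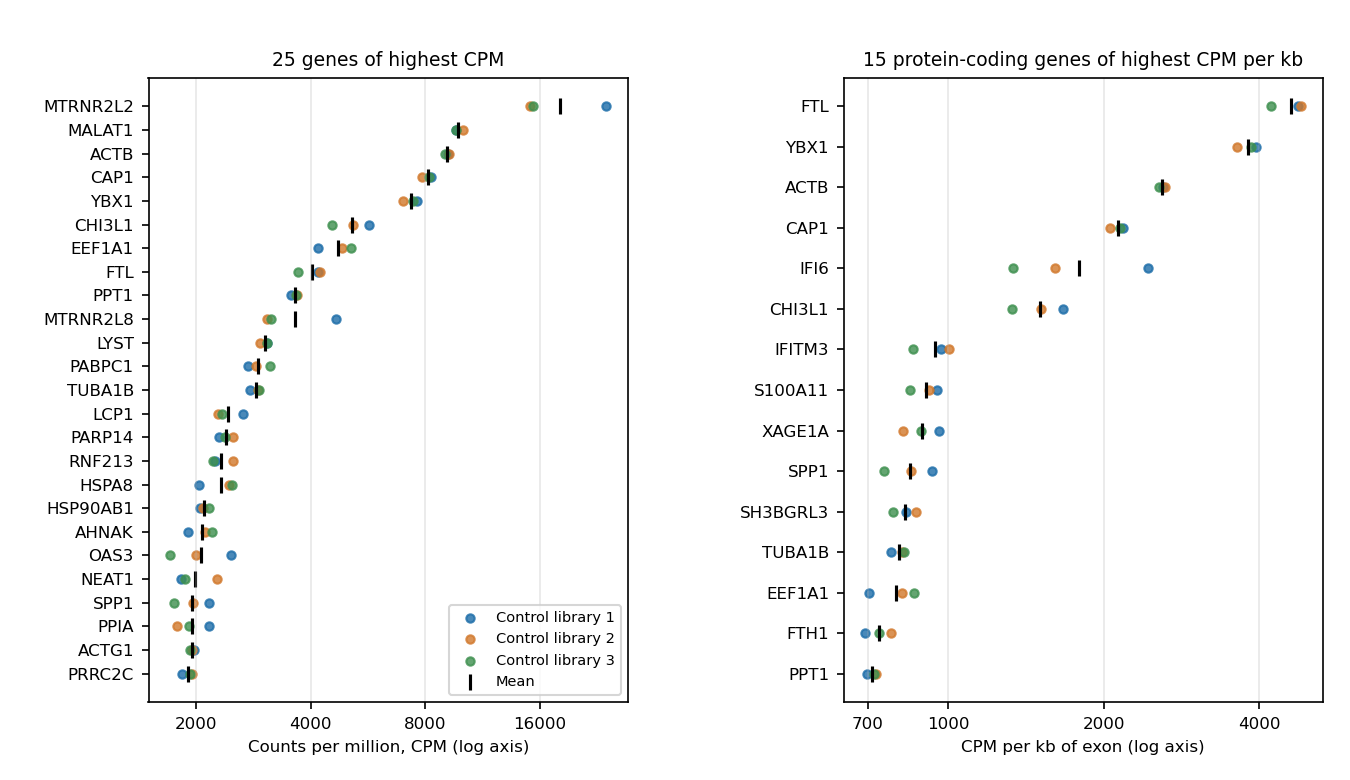
CPM of the 25 genes with the highest mean CPM (left) and CPM per kb of exon of the 15 protein-coding genes highest on that scale (right), both on log axes. Coloured points are the 3 control libraries and the black bar is their mean: the points of MALAT1, ACTB and CAP1 lie close together, whereas MTRNR2L2, MTRNR2L8 and IFI6 are set apart in library 1.

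Of all lineage lists, those of monocytes and macrophages and of the primary granule had the largest shares of members in use, while some genes of the classical monocyte, though not all, were low or absent. Of 34 monocyte and macrophage markers, 27 (79.4%) reached 1 CPM in each library, 16 reached 100 CPM and 1 had no count. Of 14 genes of the primary granule and of immature myeloid cells, 11 (78.6%) reached 1 CPM. Of all protein-coding rows 65.0% reached 1 CPM in each library. In bulk RNA, fewer cells that make a transcript and less of it per cell cannot be told apart, and this holds for every level given here.

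CSF1R, the receptor for macrophage colony-stimulating factor, read 778, 849 and 746 CPM, highest in library 2. CD68, a lysosomal glycoprotein of macrophages, read 792, 744 and 645 CPM, and FCER1G, the signalling chain shared by Fc receptors, 558, 444 and 441 CPM. VCAN, a proteoglycan of monocytes, read 601, 808 and 839 CPM, lowest in library 1. Per kilobase FCER1G had 499 CPM per kb, CD68 332 CPM per kb, the antibacterial enzyme LYZ 218 CPM per kb and CSF1R 154 CPM per kb. SIGLEC1, a sialic acid receptor of macrophages, stood at 609 ± 60.4 CPM and the scavenger receptor CD36 at 232 ± 23.2 CPM.

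Genes known from the classical blood monocyte were split. VCAN and LYZ, given above, and the chemokine receptor CCR2 (36.1 CPM per kb) were well counted, and others had few counts or none. CD14, the co-receptor for bacterial lipopolysaccharide, read 20.05, 20.7 and 13.7 CPM, which is 9.61 CPM per kb on the length scale. S100A8 and S100A9, the calcium-binding proteins that fill the cytosol of blood monocytes, read 5.504, 4.25 and 7.28 CPM and 5.504, 4.02 and 4.301 CPM. FCN1, a lectin of classical monocytes, had 0 counts in all 3 libraries. FCGR3A, which marks the nonclassical monocyte, read 2.65, 2.598 and 0.993 CPM, and the mannose receptor MRC1 0.0983, 0.472 and 0.772 CPM. In MRC1 these values stand for 1 to 7 counts per library. The scavenger receptor CD163 was at 21.5 ± 2.13 CPM.

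Genes of the primary granule, which neutrophil and monocyte progenitors load with proteases, were unequal. The serine proteases CTSG and ELANE read 272, 251 and 286 CPM and 135, 137 and 140.3 CPM, and PRTN3 read 90.9, 86.6 and 93.96 CPM. The ribonuclease RNASE2 read 463, 383 and 390.4 CPM. It was counted in the list of primary granule and immature myeloid genes, not in that of eosinophils, and is not thereby a primary granule gene. ELANE and PRTN3 had almost the same level in each library. MPO, the peroxidase that defines the same granule, read only 2.16, 0.591 and 4.85 CPM, so its values per kilobase (0.719 CPM per kb) were far under those of ELANE (134 CPM per kb). The progenitor receptors KIT (2.11 ± 0.741 CPM) and CD34 (0.1798 ± 0.232 CPM) were low, whereas FLT3 was at 94.5 ± 6.99 CPM. Of 12 genes of the later neutrophil granules 4 reached 1 CPM, ELANE among them as a member of both lists, 3 had counts but did not reach it, and 5 had no count, including LTF, LCN2, MMP8 and CEACAM8.

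Markers of other cell types reached 1 CPM less often than all protein-coding rows (65.0%), to differing degrees. Of 16 erythroid markers 1 reached 1 CPM and 12 had no count, including GYPB, AHSP and HBA1. Of 13 T cell markers 1 reached 1 CPM (CD5, at 3.27 ± 1.21 CPM) and 6 had no count, CD3D, CD3E and CD28 among them. Of 12 B cell markers 3 reached 1 CPM, with BANK1 at 21.9 ± 2.64 CPM, and 4 had no count, MS4A1 among them. Epithelial markers reached 1 CPM in 0 of 10 genes and fibroblast markers in 1 of 10. Eosinophil, basophil and mast cell markers did so in 1 of 13, and in 3 of 13 when library 1 was left out. Shares were larger for markers of megakaryocytes and platelets (5 of 11), natural killer cells (5 of 12) and neurons and glia (4 of 10). They were also larger for dendritic cells (5 of 14) and endothelium (3 of 10), and hepatocyte markers reached 1 CPM in 2 of 10.

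Some genes used as markers of other types were well above 1 CPM. PECAM1, an adhesion molecule of endothelium and of leukocytes, read 321, 319 and 303 CPM, while the other 9 endothelial markers had means under 3 CPM. MBP, the myelin basic protein gene, whose locus also gives transcripts in blood cells, was at 187 ± 12.4 CPM. GNLY and NKG7, genes of cytotoxic granules, read 36.9, 29.8 and 26.8 CPM and 15.4, 22.6 and 21.5 CPM, whereas GZMB, PRF1 and NCR1 had 0 counts. The T helper co-receptor CD4, which human monocytes also carry, was at 162 ± 26.3 CPM. It was counted above among the monocyte and macrophage markers and not among the T cell markers. It was picked out here after its value was seen.

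**Figure D2:**
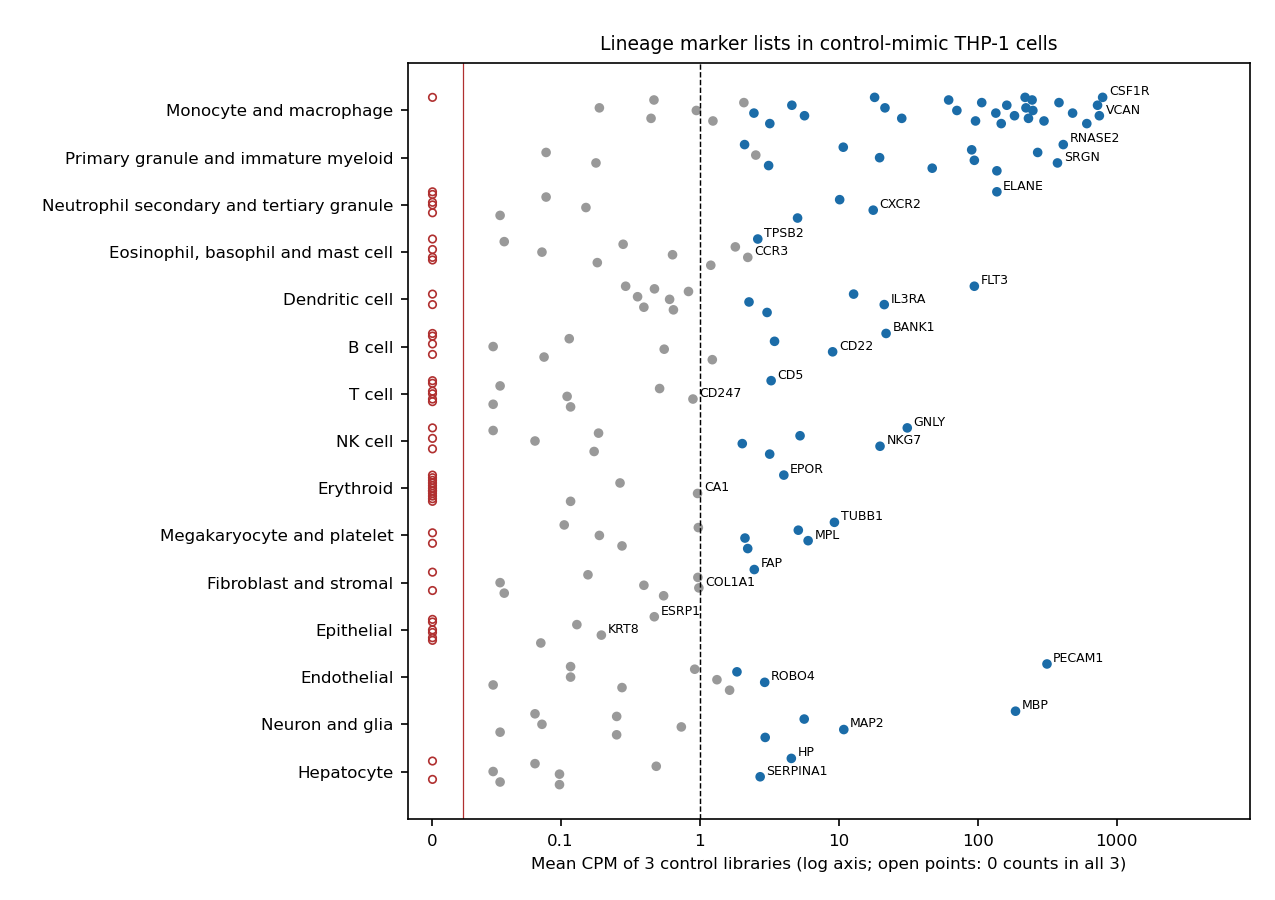
Mean CPM over the 3 control libraries (log axis) of every measured member of 15 lineage marker lists, 1 point per gene. Blue points reached 1 CPM (dashed line) in all 3 libraries, grey points did not, and open red points had 0 counts: the monocyte and the primary granule lists reach furthest to the right, and 12 of 16 erythroid genes are at 0.

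Transcription factors of the myeloid lineage were nearly all present. Of 26 listed, 24 (92.3%) reached 1 CPM in each library, against 65.0% of all protein-coding rows. Of these factors 11 reached 100 CPM, and none was without a count. ZEB2, a repressor needed for monocyte development, read 994, 1034 and 966 CPM, IKZF1 read 365, 339.9 and 376 CPM, RUNX1 294, 343 and 345 CPM and IRF8, which commits progenitors to the monocyte fate, 333, 273 and 289 CPM. SPI1, the gene of PU.1, read 42.2, 33.8 and 33.6 CPM. CEBPA, which drives early myeloid commitment, read 178, 126 and 108 CPM, with library 1 well above the others. CEBPB, which rises in mature monocytes, read 6.88, 1.18 and 3.198 CPM, and its libraries differed by several fold at a low level. Per kilobase IRF8 had 57.8 CPM per kb, CEBPA 52.1 CPM per kb, SPI1 17.7 CPM per kb and CEBPB 1.92 CPM per kb. Of the factors of maturing monocytes, KLF4 was at 10.6 ± 1.797 CPM and EGR1 at 6.01 ± 1.73 CPM.

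Of 22 transcription factors tied to leukaemia, 16 (72.7%) reached 1 CPM, against 65.0% of all protein-coding rows, and 3 had no count. MYB, a driver of progenitor growth, read 595, 577 and 638 CPM, with no library apart from the others. Of the others, MEF2D was at 512 ± 15.8 CPM, PBX3 at 336 ± 20.4 CPM, LMO2 at 281 ± 33.8 CPM, MEF2C at 237 ± 19.5 CPM and MYC at 80.1 ± 2.89 CPM. KMT2A, 1 partner of the fusion, was at 339 ± 36.5 CPM and MLLT3, the other, at 13.96 ± 1.71 CPM; counts per gene do not separate fused from normal transcripts. MEIS1, a partner of HOXA9, had 0 counts in all 3 libraries, as had MECOM and MYCN. In the HOXA cluster 6 of 11 genes reached 1 CPM, HOXA10 (38.7 ± 5.62 CPM), HOXA9 (22.6 ± 4.03 CPM), HOXA11 (21.9 ± 5.62 CPM) and HOXA13 (14.9 ± 2.81 CPM) being the highest by CPM, against 1 of 10 in HOXB, 0 of 9 in HOXC and 0 of 9 in HOXD, where all 9 genes had no count.

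Factors of other blood lineages reached 1 CPM in 11 of 19 cases (57.9%), against 65.0% of all protein-coding rows. GATA3 and TBX21, which set T cell fates, had 0 counts. PAX5, the factor that fixes B cell identity, read 82.4, 69.1 and 49.4 CPM, highest in library 1. Of other factors that act in B cells, TCF4 was at 84.3 ± 9.43 CPM, TCF3 at 47.9 ± 3.99 CPM, EBF1 at 3.87 ± 0.816 CPM and SPIB at 1.25 ± 0.283 CPM, whereas the coactivator POU2AF1 had 3 counts in library 1 and 0 in the others. Per kilobase TCF3 had 7.88 CPM per kb, PAX5 7.17 CPM per kb and TCF4 3.03 CPM per kb. GATA1, the erythroid master factor, had counts in library 3 alone, at a mean of 0.184 ± 0.318 CPM. Of 16 factors of pluripotent cells and solid tissues 3 reached 1 CPM and 8 had no count, including FOXA1, FOXA2, GATA4 and HNF4A.

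Among 48 nuclear receptors, ligand-gated transcription factors, 30 (62.5%) reached 1 CPM and 6 (12.5%) had no count. These shares were near those of all protein-coding rows, 65.0% and 15.6%. PGR, the progesterone receptor, read 59.1, 65.9 and 63.9 CPM, with little spread. Per kilobase the glucocorticoid receptor NR3C1 had 15.6 CPM per kb, PPARD 26.9 CPM per kb and PGR 4.09 CPM per kb. ESR1, the oestrogen receptor, had a count in library 3 only and a mean of 0.0368 ± 0.0637 CPM. Of the receptors for vitamins and lipids, VDR was at 29.4 ± 7.33 CPM, the retinoic acid receptor RARA at 28.8 ± 6.01 CPM and PPARG at 32.5 ± 0.686 CPM.

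Receptors of the innate immune system were broadly present. Of 34 pattern recognition receptors 30 (88.2%) reached 1 CPM in each library, against 65.0% of all protein-coding rows. First by CPM were 3 sensors of nucleic acids: IFI16, a DNA sensor, was at 1007 ± 49.8 CPM, the RNA sensor IFIH1 at 512 ± 29.5 CPM and RIGI at 373 ± 56.2 CPM. Other cytosolic sensors of nucleic acids on the list had fewer counts, with AIM2 at 31.03 ± 7.71 CPM, CGAS at 33.9 ± 3.94 CPM and DHX58 at 28.8 ± 0.562 CPM. Among Toll-like receptors, TLR2 and TLR4, which sense bacterial lipoprotein and lipopolysaccharide, read 223, 209 and 203 CPM and 100.1, 105 and 99.1 CPM, and the endosomal TLR8, TLR3 and TLR9 read 17.1 ± 2.099 CPM, 5.72 ± 0.926 CPM and 4.71 ± 1.07 CPM. Per kilobase TLR4 had 7.65 CPM per kb and its co-receptor CD14 9.61 CPM per kb. CD209, a lectin of dendritic cells and macrophages, was at 251 ± 27.3 CPM, the fungal receptor CLEC7A at 16.4 ± 3.74 CPM, the inflammasome sensor NLRP3 at 90.6 ± 10.8 CPM, and the lectin CLEC4E had 0 counts.

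Of 42 cytokine and growth factor receptors of blood cells, 38 (90.5%) reached 1 CPM in each library, against 65.0% of all protein-coding rows. IL17RA, the receptor chain for interleukin 17, read 666, 791 and 755 CPM and the interleukin 6 receptor IL6R 368, 401 and 387 CPM, both with library 1 lowest. The colony-stimulating factor receptors differed among themselves per kilobase: CSF1R had 154 CPM per kb, CSF3R 12.6 CPM per kb, CSF2RA 11.2 CPM per kb and the shared chain CSF2RB 9.14 CPM per kb. IL2RA, the inducible chain of the interleukin 2 receptor, had 0 counts. Of 36 receptors for chemokines and other chemoattractants 19 (52.8%) reached 1 CPM, against 65.0% of all protein-coding rows. First by CPM were CCR1 (173 ± 27.2 CPM), CCR2 (135 ± 14.4 CPM), CX3CR1 (107 ± 8.43 CPM) and CXCR4 (65.3 ± 9.96 CPM). CCR2, which draws classical monocytes into tissue, and CX3CR1, which marks nonclassical ones, were thus both present, while the receptor for bacterial formyl peptides, FPR1, was at 1.74 ± 0.681 CPM.

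Antibody receptors and integrins were in use in shares not far above that of protein-coding genes as a whole. Their lists were chosen with earlier results known, so these shares are no finding about the families. Of 37 Fc and immunoglobulin-like receptors 29 (78.4%) reached 1 CPM, against 65.0% of all protein-coding rows, and none lacked a count. The high-affinity receptor for immunoglobulin G, FCGR1A, read 184, 182 and 186 CPM, an SD of 2.203 CPM, and FCGR2A read 217, 259.7 and 270.2 CPM. TREM2, a lipid receptor of tissue macrophages, read 269, 259.8 and 211 CPM, and per kilobase it stood at 225 CPM per kb beside 61.3 CPM per kb for FCGR1A. Of 26 integrin subunits 19 (73.1%) reached 1 CPM. ITGB2, the beta chain shared by the leukocyte integrins, read 1178, 899.9 and 879 CPM, highest in library 1, and its partners ITGAL, ITGAM and ITGAX were at 432 ± 44.6 CPM, 222 ± 22.3 CPM and 219 ± 14.4 CPM, while the partner ITGAD was at 0.761 ± 0.198 CPM.

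Of 58 receptor tyrosine kinases 21 (36.2%) reached 1 CPM in each library, a smaller share than the 65.0% of all protein-coding rows. After CSF1R the highest by CPM was AXL, a receptor for apoptotic cells, at 419, 345 and 316 CPM. Its relative MERTK was at 31.2 ± 3.62 CPM, the insulin receptor INSR at 141 ± 7.65 CPM and FGFR1 at 51.8 ± 9.33 CPM. RET, the receptor of the GDNF family known from nerve and kidney development, read 93.96, 81.5 and 90.8 CPM. EPHA4, EPHA8, FGFR2 and FLT4 were among the 5 kinases with 0 counts.

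**Figure D3:**
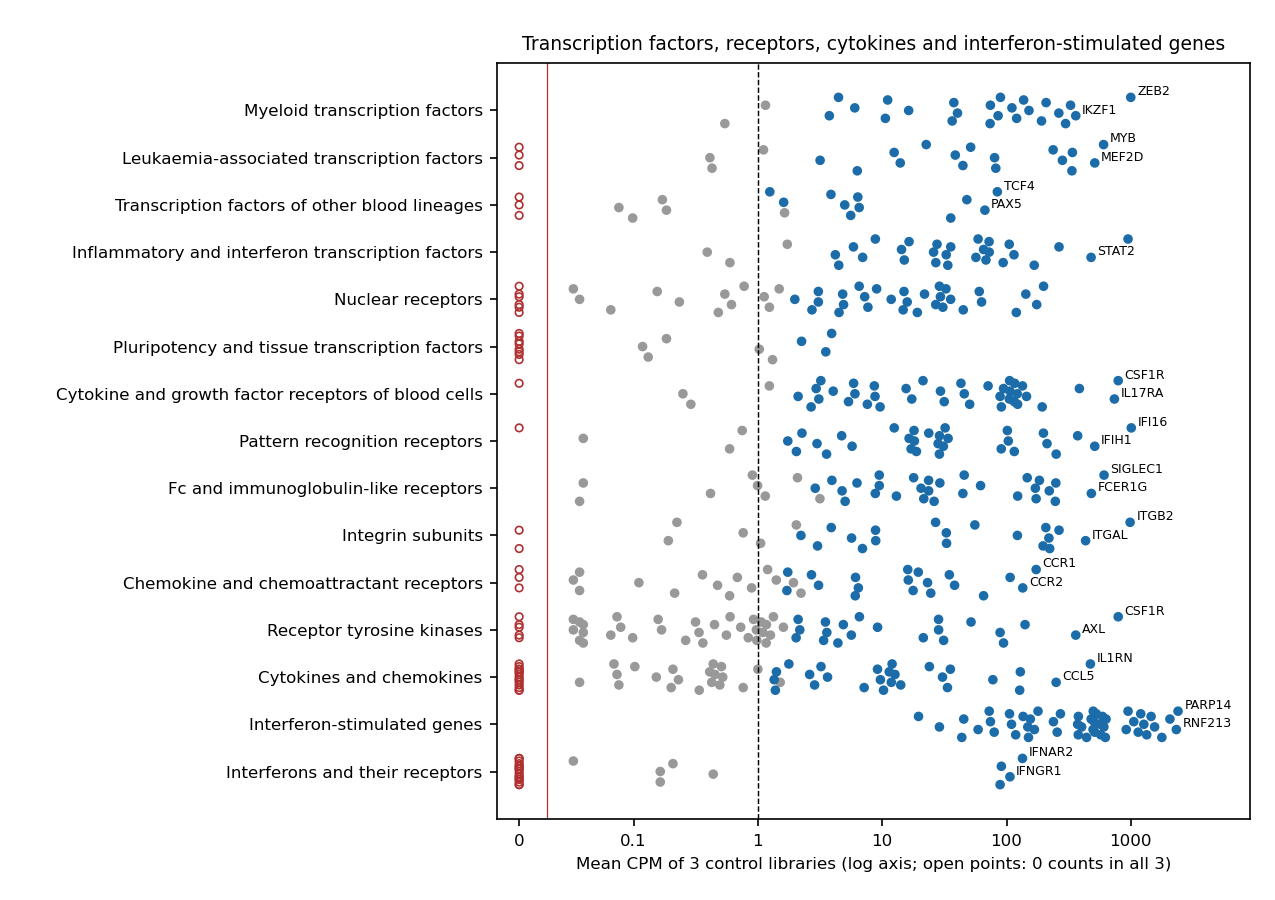
Mean CPM over the 3 control libraries (log axis) of all measured members of 15 lists of transcription factors, receptors, cytokines and interferon genes, 1 point per gene and colours as for the lineage lists. All 50 interferon-stimulated genes lie above 10 CPM, while in the list of interferons and their receptors 4 receptor genes lie near 100 CPM and 17 genes are at 0.

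Cytokine genes were mostly low, and those that were not included several targets of interferon. Of 61 cytokines and chemokines 26 (42.6%) reached 1 CPM in each library, and 15 (24.6%) had no count. Of all protein-coding rows 65.0% and 15.6% did so. IL1RN, the natural antagonist of interleukin 1, read 495, 524 and 398 CPM, while interleukin 1 beta itself, IL1B, read 5.799, 6.61 and 9.04 CPM. CCL5 and CXCL10, chemokines that draw T cells, read 281, 238 and 232 CPM and 176, 120.2 and 90.8 CPM, and the death ligand TNFSF10 was at 128 ± 22.4 CPM. CXCL10 was highest in library 1. TNF read 11.6, 11.7 and 14.7 CPM and the neutrophil attractant CXCL8 1.77, 1.18 and 1.103 CPM, and IL6 and IL10 were at 0.0761 ± 0.06605 CPM and 0.102 ± 0.0985 CPM, which is no more than a count or a few per library. CCL17, CCL7 and CSF2 had 0 counts.

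Interferons are antiviral cytokines whose receptors activate a factor complex with STAT2 and IRF9, which binds an element with the letters GAAANNGAA in promoters of interferon-stimulated genes. In these control cells all 50 listed interferon-stimulated genes reached 10 CPM in each library and 39 reached 100 CPM, with a median of 459.5 CPM against 23.996 CPM over all 13943 rows in use. That list was drawn up after the values had been seen, so these levels describe the genes picked and support nothing about interferon-stimulated genes as a class. Together they held 3.05% of the counts. PARP14, RNF213 and OAS3 were among the 25 genes of highest CPM, at 2296, 2506 and 2385 CPM, 2244, 2501 and 2219.5 CPM and 2478, 1995 and 1712 CPM. IFI6, a small protein of the endoplasmic reticulum, read 2107, 1393 and 1157 CPM, so library 1 exceeded the others; the mean was 1275 CPM over libraries 2 and 3 alone. MX1, which blocks viral nucleocapsids, was steady at 1317, 1393 and 1312 CPM. ISG15, a ubiquitin-like modifier, read 188, 142 and 119.9 CPM and IFIT1 448, 363 and 324 CPM, both highest in library 1. Of the 50 genes 39 were higher in library 1 than in the mean of the others, and of all rows in use 51.3% were.

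The interferon genes themselves were nearly silent. In the list of 26 interferons and receptor chains 17 had no count, and IFNB1, which encodes interferon beta, read 0.295, 0.354 and 0.662 CPM. The 4 receptor chains were all present: IFNAR1 at 96.8, 93.2 and 82.5 CPM, IFNAR2 at 132, 145 and 126 CPM, IFNGR1 at 103, 111 and 105 CPM and IFNGR2 at 111, 79.6 and 75.9 CPM. Of the factors downstream, STAT2 was at 479 ± 32.6 CPM, IRF9 at 72.5 ± 8.58 CPM and IRF7 at 59.04 ± 6.79 CPM. No untransfected cells were among the libraries used, and the level before transfection is not known from these data.

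The element was looked for on both strands of the 300 bases around the start site (250 before and 50 after), as RefSeq gives them on GRCh38.p14, for the 38 interferon-stimulated genes and the 15227 protein-coding genes of the table that had such an entry. It was found for 24 of the 38 (63.2%), for 7.05% of all promoters, for 10.5% of those of genes at 100 CPM or more and for 7.77% of those of genes with no count. Of 27 monocyte and macrophage markers with a promoter entry 5 held it (18.5%). The 160 bases before the start site are shown for the 4 most abundant of the listed genes in which the element lay there, with each match in capitals. A match is a description of letters and not a shown binding site.
PARP14, chr3:122680679-122680838, plus strand: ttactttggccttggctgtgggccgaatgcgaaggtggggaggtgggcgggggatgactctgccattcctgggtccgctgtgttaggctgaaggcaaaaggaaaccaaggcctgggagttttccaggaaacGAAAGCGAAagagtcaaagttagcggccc
OAS3, chr12:112938314-112938473, plus strand: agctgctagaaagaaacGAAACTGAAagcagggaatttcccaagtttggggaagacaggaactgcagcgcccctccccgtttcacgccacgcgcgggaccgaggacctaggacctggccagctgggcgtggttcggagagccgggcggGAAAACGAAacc
IFI6, chr1:27672193-27672352, minus strand: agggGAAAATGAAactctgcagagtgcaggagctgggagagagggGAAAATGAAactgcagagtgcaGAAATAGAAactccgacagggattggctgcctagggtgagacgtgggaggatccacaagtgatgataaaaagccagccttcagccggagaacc
IFITM3, chr11:320861-321020, minus strand: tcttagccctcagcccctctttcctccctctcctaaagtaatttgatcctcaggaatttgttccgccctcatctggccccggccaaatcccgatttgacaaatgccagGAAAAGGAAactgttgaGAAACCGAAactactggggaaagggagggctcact
The printed stretch of IFI6 held 3 matches, those of OAS3 and IFITM3 2 each and that of PARP14 1, at levels of 1553 ± 495 CPM, 2062 ± 387 CPM, 1271 ± 106 CPM and 2396 ± 106 CPM, and the number of matches was not set against the level.

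Antigen presentation was unequal between its branches. Of 22 HLA class I and II genes and their helpers 19 (86.4%) reached 1 CPM, against 65.0% of all protein-coding rows. B2M, the light chain of class I molecules, read 1285, 855 and 830.1 CPM, highest in library 1, and HLA-B read 466, 422 and 378 CPM. Of class II, HLA-DRB1 was at 113 ± 11.3 CPM and HLA-DRA, the invariable partner chain, at 10.3 ± 3.41 CPM, which per kilobase is 91.7 CPM per kb against 8.06 CPM per kb. CIITA, the master regulator of class II, was at 12.97 ± 1.49 CPM, and the invariant chain CD74 at 219 ± 16.5 CPM. HLA genes are highly similar and polymorphic, so how the authors' counting placed their reads makes these values uncertain.

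Housekeeping genes were nearly all in use, against 65.0% of all protein-coding rows. All 79 cytosolic ribosomal protein genes and all 76 mitochondrial ones reached 1 CPM in each library, with medians of 343 and 21.95 CPM, and the former held 2.88% of the counts. All 22 lysosomal proteases and hydrolases did so, led by CPM by CTSB (783 ± 28.6 CPM), CTSS (609.8 ± 153 CPM) and CTSD (598 ± 107 CPM). Of 23 glycolytic enzyme genes 21 did so, LDHA (1536 ± 91.1 CPM), GAPDH (1141 ± 61.96 CPM) and PGK1 (517 ± 5.77 CPM) first by CPM.

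Genes of dividing cells were present and the brakes of the cycle were uneven. Of 24 cell cycle genes 20 (83.3%) reached 1 CPM, against 65.0% of all protein-coding rows. MKI67, the proliferation antigen, read 1493, 1780.0 and 1769 CPM, TOP2A was at 565 ± 79.8 CPM and the cyclin-dependent kinase CDK6 at 397 ± 24.1 CPM. The brakes RB1 and CDKN1A read 277, 262 and 265 CPM and 299.9, 202 and 180.4 CPM, the latter highest in library 1, CDKN2C was at 89.1 ± 3.87 CPM, and CDKN2A and CDKN2B had 0 counts.

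Several families known from other tissues stood at or near 0, though not all such families did. Of 372 olfactory receptors 8 reached 1 CPM and 282 had no count, and OR2A1 and OR2A42, the highest by CPM, had the same 3 counts. Of 93 keratin-associated proteins 0 reached 1 CPM and 87 had no count. For keratins these numbers were 1 (KRT10, at 5.54 ± 1.75 CPM) and 44 of 55, for beta-defensins 0 and 32 of 39, and for the cancer-testis genes of the MAGE-A, MAGE-B and MAGE-C families 1 and 21 of 25. Protein-coding genes as a whole had no count in 15.6% of cases, so the silent share was above the general one in each of these families. It was below the general one for taste receptors, of which 3 of 27 (11.1%) had no count and 3 reached 1 CPM. The same held for protocadherins, of which 2 of 66 (3.03%) had no count.

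Silent and active genes differed in the make-up of their promoters. A CpG is a cytosine followed by a guanine, the pair that is methylated in human DNA, and promoters rich in it are known for broad expression. Over the same 300 bases, the median number of CpG per 100 bases was 2 (quartiles 0.667 to 6) for 2239 genes with no count, 4 for 2321 genes under 1 CPM, 7.67 for 2986 genes at 1 to 10 CPM, 8.67 for 5799 genes at 10 to 100 CPM and 9 (quartiles 6 to 11.7) for 1882 genes at 100 CPM or more. The median GC content was 54.7% in the first of these classes and 65.0% in the last. The letters TATAAA lay within the 50 bases before the start in 10.2% of the silent genes, 5.82%, 3.35% and 1.43% of the classes between, and 2.34% of the most abundant class. Gene families share their promoters by descent, so genes are not independent points here. The classes overlapped widely, and marker genes of monocytes lay low on this scale, with a median of 1.33 CpG per 100 bases for 27 promoters.

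A promoter of each kind is printed with its CpG in capitals, CAP1 for a very abundant gene and KRT5, a keratin of the basal epidermis with 0 counts, for a silent one.
CAP1, chr1:40040080-40040239, plus strand: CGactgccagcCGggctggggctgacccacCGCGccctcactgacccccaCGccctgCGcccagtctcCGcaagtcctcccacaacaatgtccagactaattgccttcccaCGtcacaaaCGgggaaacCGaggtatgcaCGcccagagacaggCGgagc
KRT5, chr12:52520395-52520554, minus strand: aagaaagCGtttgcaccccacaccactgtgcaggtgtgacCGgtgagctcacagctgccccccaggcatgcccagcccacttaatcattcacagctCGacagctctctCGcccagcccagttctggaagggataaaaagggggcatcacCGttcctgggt
In these 160 bases CAP1 had 12 CpG and KRT5 had 5. Over the full 300 bases CAP1 had 7.33 CpG per 100 bases and KRT5 had 2.33. The value of CAP1 equalled the median of all promoters and lay below the median of 9 of its own class.

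The protein-coding genes of chromosome 1 held 15.2% of all counts. Of these 1974 genes 1310 (66.4%) were in use, close to the 65.0% of all protein-coding rows. Windows of 15 neighbouring measured protein-coding genes were ranked by their median CPM, with the order of genes taken from the RefSeq table. Over 18671 windows the median of these values was 9.80 CPM and the 99th percentile 73.0 CPM. The 4 windows at the top shared the value 233 CPM and overlapped in a stretch of chromosome 1 from MYCL to CTPS1, 18 genes that all reached 1 CPM in each library. The next window apart from it, from IRF2BP2 to HEATR1 on the same chromosome, had a median of 143 CPM.

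The 18 genes held 1.67%, 1.67% and 1.71% of the counts in libraries 1, 2 and 3. Besides CAP1 and PPT1, whose values are given above, they included RLF (1143 ± 93.6 CPM), SMAP2 (1121 ± 37.2 CPM) and NFYC (969 ± 24.7 CPM). The stretch was chosen for its high CPM, so these levels are a description of it. The stretch also held genes known for narrow use: COL9A2, a cartilage collagen, was at 117 ± 10.98 CPM and RIMS3, a synaptic protein, at 89.2 ± 4.53 CPM. MYCL itself, a relative of MYC, was at 47.2 ± 5.93 CPM. YBX1 lies 31 measured protein-coding genes beyond MYCL, outside the stretch.

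On chromosome 9 a run of 12 neighbouring protein-coding genes from IFNA5 to DMRTA1 had 0 counts in all 3 libraries. It held the brakes CDKN2A and CDKN2B, 7 interferon genes and also KLHL9, an adaptor of a ubiquitin ligase, and MTAP, a purine salvage enzyme known from most tissues. To 1 side, beyond further interferon genes, HACD4 was at 51.2 ± 6.79 CPM and FOCAD at 53.5 ± 5.75 CPM, and to the other ELAVL2 was at 1.900 ± 0.871 CPM and, further on, PLAA at 65.7 ± 5.87 CPM. Across the chromosomes examined, 15 runs were at least that long, and most of the others consisted of olfactory receptors, keratins and similar clusters.

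**Figure D4:**
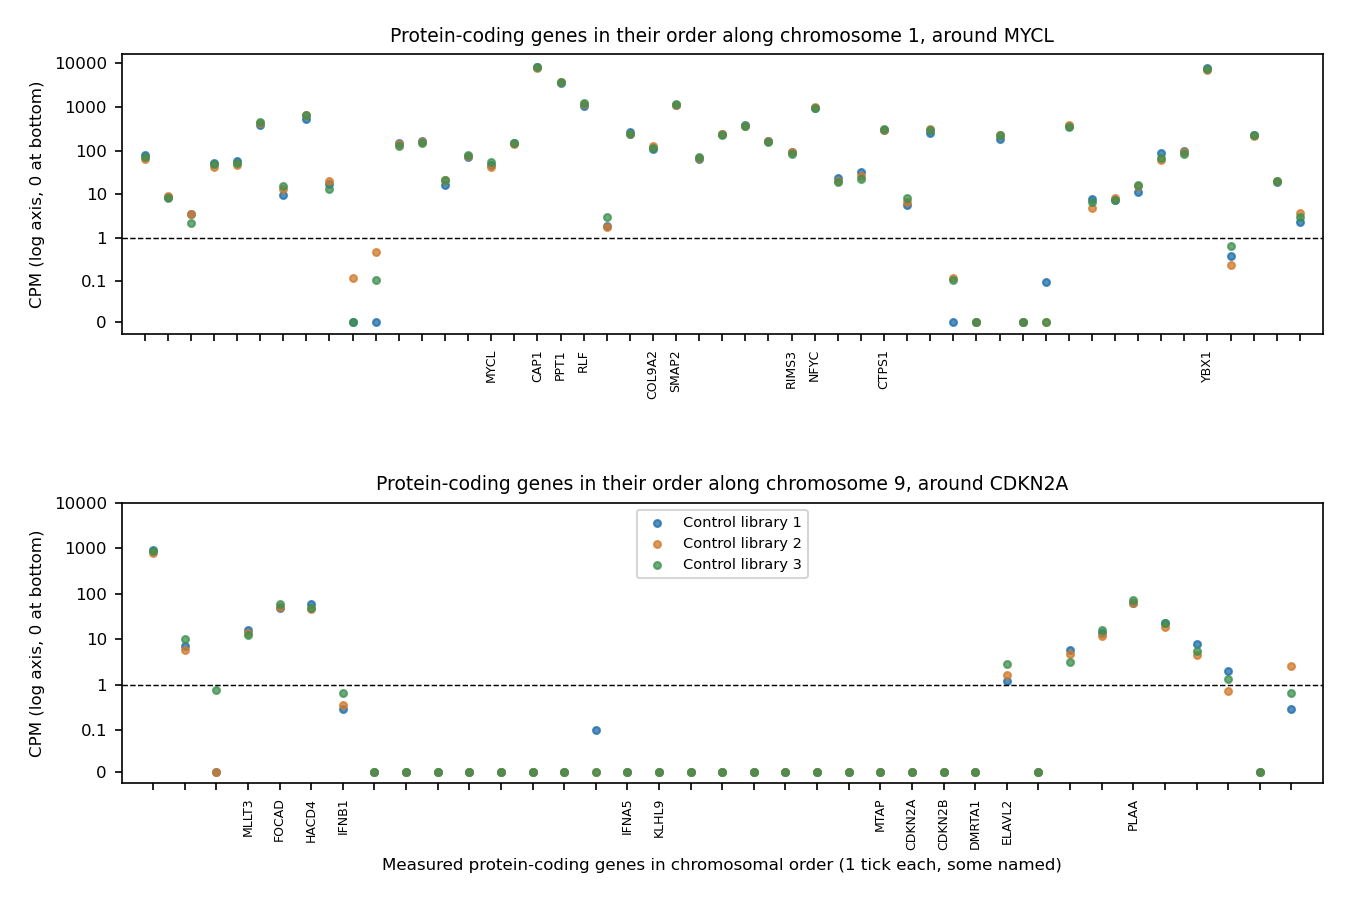
CPM (log axis, with 0 drawn at the bottom) of measured protein-coding genes in their chromosomal order around MYCL on chromosome 1 (top) and around CDKN2A on chromosome 9 (bottom), 1 coloured point per control library and the dashed line at 1 CPM. From MYCL to CTPS1 every gene is above 1 CPM in each library, and from IFNA5 to DMRTA1 every gene is at 0.

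For 9832 genes at a mean of 10 CPM or more the median coefficient of variation (SD divided by mean) was 9.77%. With counting error taken off, it was 8.01%, and it was 3.46% without library 1, over 2 libraries. What is left is known as the biological coefficient of variation, though here it may be technical. Over all 3 libraries its median was 18.3% for genes at 1 to 10 CPM and 6.50% for genes at 100 to 1000 CPM. The common value of edgeR, a single value shared by genes of which some lay under 10 CPM, was higher than 8.01%, at 12.7%. For 16.9% of the 9832 genes the spread was no larger than the average that counting error alone would give. Counting error alone can also exceed that average, so the other genes are not thereby shown to differ beyond it. Among the steadiest by coefficient of variation were PUS7, a pseudouridine synthase, at 25.1, 25.04 and 25.04 CPM and the peptidase gene BLMH at 73.5, 73.3 and 73.3 CPM.

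Several of the least steady genes were high in library 1. MAB21L3 read 38.1, 13.1 and 12.1 CPM, the growth factor gene FGF5 60.5, 24.6 and 19.2 CPM and the lactate exporter SLC16A3 41.6, 18.9 and 12.6 CPM. LPAL2, a relative of the apolipoprotein(a) gene, read 18.6, 7.32 and 4.74 CPM, and TDO2, which degrades tryptophan, 23.7, 12.3 and 8.27 CPM. ZNF319 differed between all 3 libraries, at 25.7, 15.9 and 4.85 CPM. In the other direction NBPF6 read 7.37, 17.01 and 24.6 CPM and the NUT family members NUTM2A and NUTM2B read 12.1, 33.4 and 33.1 CPM and 12.2, 34.3 and 32.5 CPM, lowest in library 1; both belong to families of near-identical copies. Among the genes at 10 CPM or more, 389 were higher in library 1 than the mean of the others by 0.5 or more on the log2 scale and 268 were lower by as much, against 120 and 138 for library 2 and 117 and 208 for library 3.

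The libraries also differed over groups of genes. The median difference of its log2 CPM from the mean of libraries 2 and 3 was 0.01 over all 13943 rows in use. It was 0.38 over the 26 cytokines and chemokines in use, of which 19 were higher in library 1, 0.25 over HLA genes (15 of 19 higher), 0.16 over cytosolic ribosomal protein genes (61 of 79 higher) and 0.13 over lysosomal enzymes (17 of 22 higher). In the other direction it was -0.09 over translation factors (5 of 15 higher) and -0.09 over receptor tyrosine kinases (7 of 21 higher). It was 0.09 over the interferon-stimulated genes and below 0.01 in size over the monocyte and macrophage markers, with 13 of 27 higher. Library 3 differed from the mean of the others by -0.35 over cytokines and chemokines, -0.20 over HLA genes and -0.16 over interferon-stimulated genes, the last a larger difference than that of library 1. No test was made of these differences, since each library is a single sample. The rows with no count in 1 library at the highest mean were SPACA5 (0, 3.66 and 3.198 CPM) and its copy SPACA5B, and MUC12 (1.57, 2.598 and 0 CPM).

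**Figure D5:**
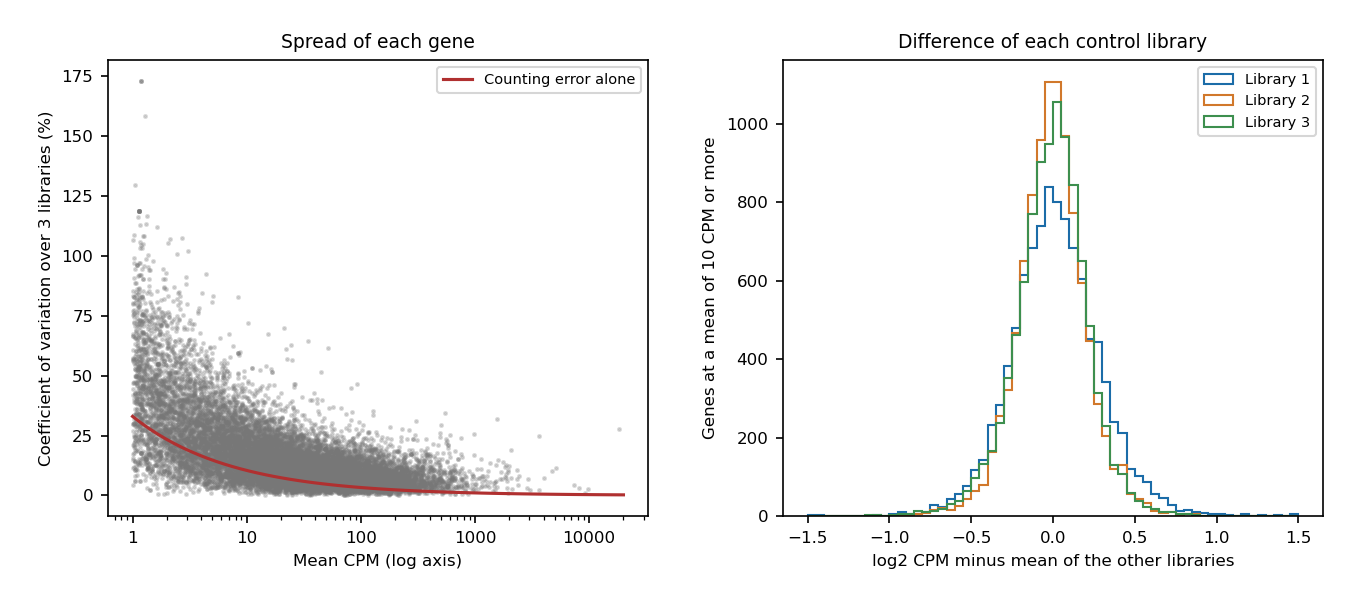
Left, coefficient of variation over the 3 control libraries against mean CPM (log axis) for genes at 1 CPM or more, with the red line giving counting error alone. Right, number of genes at 10 CPM or more by the difference of each library's log2 CPM from the mean of the other libraries (values beyond 1.5 drawn at the edge): the curve of library 1 is lower in the middle and wider than those of libraries 2 and 3.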

How the data were processed

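Per the labels, total RNA from the THP-1 line went into standard Illumina libraries. The authors deposited raw counts per gene, whole numbers with no normalization, for 6 libraries, and the 3 columns of the control mimic were used. The submitters' processing notes name bcl2fastq, TopHat, edgeR and the build hg19. How reads were assigned to genes (tool, annotation, strand, reads with several matches) is not given in the sources used here. Some reads were counted more than once: 39 sets of rows with related names (99 rows of at least 60 counts in all) held the same counts in each library, 13 of them protocadherin alpha genes that share exons.

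Identifiers were matched to a RefSeq gene table (GRCh38.p14, names and gene order only) for 26204 of 26347 rows, which held 99.8% of the counts. Library totals were adjusted by trimmed mean of M-values factors (edgeR 4.0.16, R 4.3.3) over the control libraries. Exon lengths are unions of GENCODE 29 exons on GRCh38, not the counting build, and were found for 97.3% of rows in use. A gene in use reached 1 CPM in all 3 libraries. Log2 values carry a prior count of 2. Counting error was taken off the squared coefficient of variation as the inverse of the expected count. The steps were tested on simulated counts. No test between groups was made.

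The members and lists were chosen with earlier results of these data known. The text names the 25 genes of highest CPM, the 15 protein-coding genes of highest CPM per kb, up to 6 highest and 4 uncounted members of each list together with members a sentence is about, the genes of highest and lowest coefficient of variation, the 8 furthest genes of each library, and genes with no count in 1 library. Some genes this rule covers are not reported here. Neighbours of MYCL and CDKN2A and the genes on printed promoters were chosen after values were seen. Alternatives covered scaling, thresholds, prior counts and leaving out each library.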

Additional observations from a re-analysis of the deposited data

How the results depend on the processing

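The number of genes at 1 CPM or more in all 3 libraries, 13943, was the same under library totals and DESeq2 size factors, lay between 12105 (3 CPM) and 14902 (0.5 CPM) under other thresholds, and between 14175 and 14243 with 1 library left out. The number of rows with no count was 8090 when up to 3 counts were allowed, 6606 to 6729 with 1 library left out, and 2969 among protein-coding rows alone, where fewer rows are counted. The share of the 100 most abundant genes, 19.6%, was 20.1% with ribosomal protein genes removed first and 15.1% when genes were ranked per kilobase, which picks other genes, and 19.4% to 19.7% with 1 library left out. The median biological coefficient of variation was 6.52% from 100 CPM and 9.56% from 1 CPM. It was 3.46% without library 1, against 7.28% without library 2 and 6.81% without library 3; all 3 values rest on 2 libraries, so the main value of 8.01% depends on library 1. The differences of library 1 in 26 lists with at least 5 members in use kept their sign under 2 other scalings and another prior count in all but 2 of 78 cases. No paired analysis was possible because only 1 group was used. Below about 10 CPM, counting error alone exceeds the spread found in abundant genes, and single levels there should be read with that limit.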

Other observations

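Some members of other gene families were in use although they are known mainly from elsewhere. The shares in use were 25.5% of cytochrome P450 genes, 40.9% of voltage-gated potassium channels, 44.4% of forkhead genes and 21.1% of SOX genes. All of these were below the 65.0% of all protein-coding rows, while that of the ZNF genes was 83.7%. CYP19A1, the aromatase that makes oestrogens, was at 65.8 ± 10.2 CPM, among 14 of 55 cytochrome P450 genes that reached 1 CPM. Of 22 voltage-gated potassium channels 9 did so, KCNQ3 at 96.3 ± 8.98 CPM. Of 45 forkhead genes 20 did so, and FOXP2, known from speech and brain development, read 182, 195 and 189 CPM. Of 504 zinc finger genes named ZNF 422 reached 1 CPM and 18 had no count, with ZNF107 at 569.9 ± 23.1 CPM. Of 19 SOX genes 4 did so, SOX5 being the first by CPM at 33.2 ± 1.14 CPM.

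Of 379 solute carriers 233 (61.5%) reached 1 CPM, near the 65.0% of all protein-coding rows, and 60 had no count. SLC43A3, a purine transporter, read 432, 457 and 424 CPM, and SLC8A1, a sodium-calcium exchanger best known from heart muscle, was at 214 ± 0.654 CPM. Of 20 listed long and structural noncoding RNAs 16 had a row, and 12 of these reached 1 CPM. Of all 3822 rows of long noncoding RNA genes 958 did so. GAS5 was at 199.5 ± 11.4 CPM and the precursor of a microRNA cluster, MIR17HG, at 57.0 ± 2.56 CPM, while H19 and HOTAIR had 0 counts. Of 66 protocadherins 54 reached 1 CPM, but 13 alpha protocadherin rows held the same counts, so their number is not a number of separately expressed genes.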
